A study of Mus musculus with 6 samples.

Results

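Ky, which encodes kyphoscoliosis peptidase, was examined with 6 partners that help to maintain the Z-disc, the plate of crosslinked actin that joins neighbouring sarcomeres of a muscle fibre. The partners were Flnc, Xirp1, Xirp2, Igfn1, Myot and Synpo2. The 7 genes were taken by symbol from 22036 gene rows, and each symbol matched 1 row. They were chosen by their levels in this same contrast between the virus groups, so the differences are given as a description, with no p-value for any member. How many members were called in the fits over all genes is stated beside the share of all genes called, and nothing is read from it. The samples were 6 libraries of skeletal muscle, with no muscle named, from mice lacking PRR14, a nuclear protein. All animals carried the knockout, and no wild-type or uninjected muscle was analysed here. In 3 libraries the muscle had received AAV, a viral vector, for MEF2C-GFP, that is MEF2C, a transcription factor of muscle genes, with green fluorescent protein. In the other 3 libraries the virus carried GFP. Tissue was taken 1 month after injection, and the labels used here state neither the age of the mice nor the promoter of the virus nor whether replicates were separate animals. The p-values below measure only the spread between these libraries.

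The sarcomere is pulled at every contraction, and the Z-disc and the sites that tie it to the membrane are kept up by continuous repair. Filamin C, an actin crosslinker, unfolds under load and is cleared by a chaperone-assisted form of autophagy, while Xin-repeat proteins gather at damaged spots in myofibres. Mice without functional kyphoscoliosis peptidase develop a curved spine with degeneration of postural muscles.

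Each library was a full-length cDNA library amplified by PCR and read on an Oxford Nanopore instrument, with 3370833 to 3900617 reads counted in genes. The 7 genes took between 0.116% and 0.154% of those reads. Levels are given as normalised CPM, which are read counts divided by the library total after TMM scaling. Values listed under MEF2C or under GFP are those of replicates 1, 2 and 3 of that group, in this order. Counting intervals are exact Poisson intervals at 95%, and they cover counting error only, since PCR copies were not marked by molecular identifiers. Mef2c, the gene delivered, stood at 234, 196 and 371 CPM under MEF2C and at 223, 262 and 236 under GFP, and in 1 of the 3 libraries given the MEF2C virus, replicate 3, it exceeded every GFP value. The sources used here do not say whether reads of the viral transcript could be counted under this gene. The groups are therefore called the libraries labelled MEF2C and the GFP libraries. Skeletal muscle genes were abundant throughout: the 12 fast-fibre genes listed for the check summed to between 176480 and 275442 CPM.

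Because the virus delivered a MEF2 factor, the bases before the start of 5 members were searched for the MEF2 consensus, the A/T-rich site that MEF2 proteins bind. Xirp1 and Myot were not searched. RefSeq sequences of GRCm38.p6 gave a window of 250 bases before an annotated start for Ky, Flnc, Xirp2, Igfn1 and Synpo2. Both strands were searched. Of the 5 genes, Xirp2 and Synpo2 each held 1 match, against 2.92% of all 32851 windows of this length. Xirp2 is on GRCm38 chromosome 2 (window 67445752 to 67446001, plus strand) and Synpo2 on chromosome 3 (window 123236150 to 123236399, minus strand). The Flnc window (chromosome 6, 29432903 to 29433152, plus strand) is shown with them as that of a member without a match whose levels under MEF2C were all above those under GFP. It belongs to the more upstream of the starts that RefSeq gives for Flnc. A second Flnc window, 29433006 to 29433255, which ends at the base before the GENCODE start of the gene, held no MEF2 match either and is not printed. The sequences run 5′ to 3′ on the strand of the gene and end at the base before a RefSeq start, with the match in capitals.
Xirp2: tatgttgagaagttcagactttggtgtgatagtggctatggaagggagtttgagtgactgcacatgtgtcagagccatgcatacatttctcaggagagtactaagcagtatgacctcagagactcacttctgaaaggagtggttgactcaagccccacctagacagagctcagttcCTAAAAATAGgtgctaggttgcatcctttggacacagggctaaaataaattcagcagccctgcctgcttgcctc
Synpo2: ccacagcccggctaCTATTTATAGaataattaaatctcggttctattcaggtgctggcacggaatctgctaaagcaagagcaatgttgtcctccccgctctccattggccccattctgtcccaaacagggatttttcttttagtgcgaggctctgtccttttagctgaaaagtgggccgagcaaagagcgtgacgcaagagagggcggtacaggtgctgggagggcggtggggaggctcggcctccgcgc
Flnc: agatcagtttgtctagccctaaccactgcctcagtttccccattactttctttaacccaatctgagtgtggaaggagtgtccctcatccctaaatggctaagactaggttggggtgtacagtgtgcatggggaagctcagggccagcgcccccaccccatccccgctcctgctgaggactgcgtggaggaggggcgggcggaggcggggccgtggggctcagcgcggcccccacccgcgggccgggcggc
The match in Xirp2 lay 74 to 65 bases before the start and that in Synpo2 236 to 227 bases before it. Neither overlapped a match to the other motifs searched. These were the E-box (CANNTG), bound by myogenic factors and held by 66.2% of all windows, the MCAT site (CATTCC), bound by TEAD factors and held by 12.6%, and the CArG box, bound by serum response factor and held by 1.47%. The Xirp2, Igfn1 and Synpo2 windows held 2, 3 and 2 E-boxes, and none of the 3 held an MCAT site or CArG box. The second Flnc window held 1 MCAT site, 104 to 99 bases before its start, and the Flnc window shown held none of these motifs. The Ky window lay within an annotated exon of the gene and is not shown. A match describes the letters only, and no binding was measured.

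Between the groups, Ky stood lower and Flnc higher in the libraries labelled MEF2C, Igfn1 leaned higher, and the levels of Xirp1, Xirp2, Myot and Synpo2 overlapped widely. Of the 7 genes, 0 were called by edgeR's quasi-likelihood test over all genes (adjusted p under 0.05), where 0.0758% of the 9229 genes tested were called, and 2 had an unadjusted p under 0.05, where 5.7% of all genes did. Of all tested genes, 0.0325% were called higher and 0.0433% lower. DESeq2, which called 0.463% of the 4752 genes it gave an adjusted p, and limma-voom, which called 0.0325% of the 9229, also called 0 of the 7. All 7 members passed the filter on low counts. Groups did not overlap for 1 member that was lower and 1 that was higher, where 5.43% and 5.68% of all tested genes were so. The median log2 fold change of the members was 0.02, beside 0.01 for all tested genes, and 4 were positive and 3 negative.

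**Figure D1:**
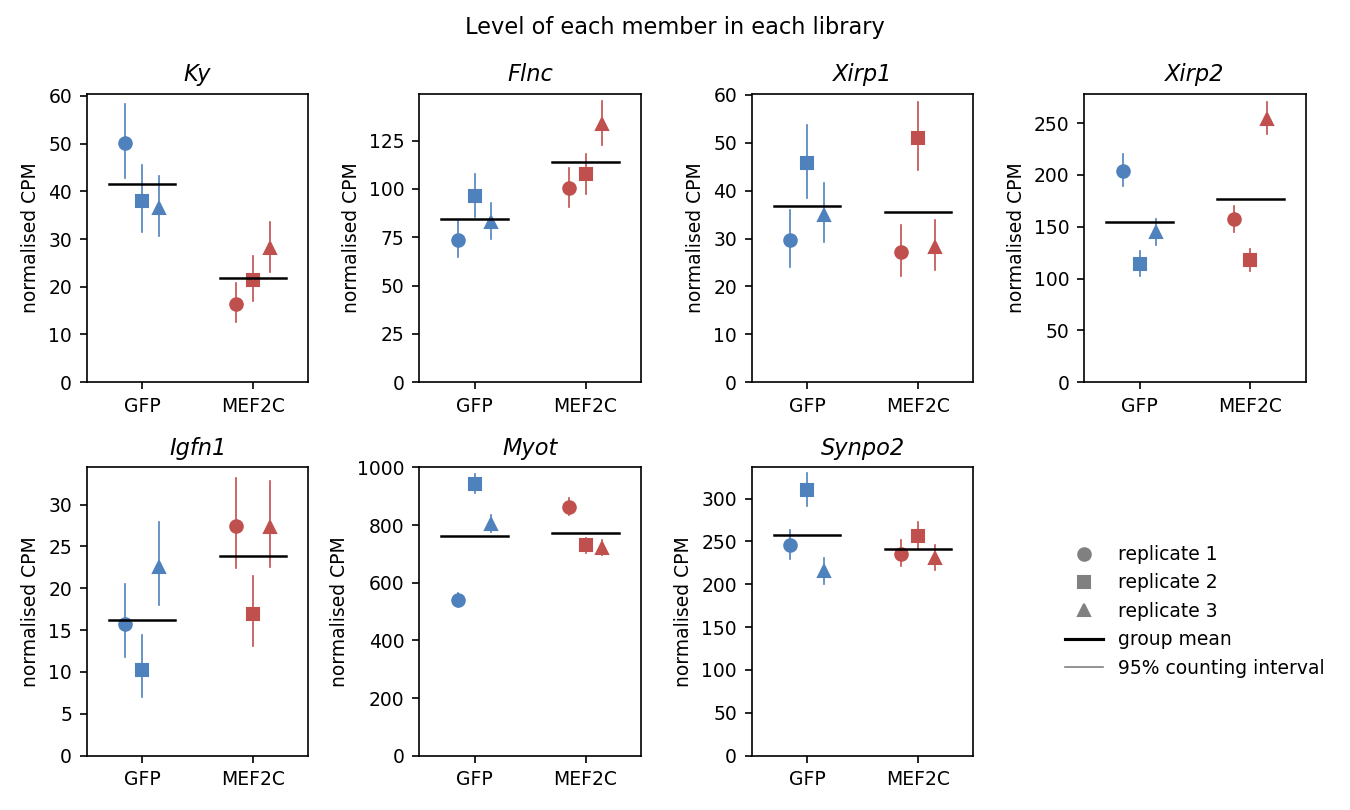
Normalised CPM (vertical axes, from 0) of each member in the 3 GFP (blue) and 3 MEF2C (red) libraries; symbols mark the replicate, thin lines the 95% counting interval and black bars the group mean. Ky sits between 36.6 and 50.1 in the GFP libraries and between 16.3 and 28.1 in those labelled MEF2C, while Flnc lies the other way and the groups of the other 5 members overlap.

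Ky (ENSMUSG00000035606, GRCm38 chromosome 9, 102505750 to 102546239, plus strand, protein-coding) encodes a transglutaminase-like protein of the Z-disc. It was read 63, 86 and 116 times under MEF2C and 169, 119 and 138 times under GFP. These counts correspond to 16.3, 21.4 and 28.1 CPM and to 50.1, 38.0 and 36.6 CPM. All 3 libraries labelled MEF2C lay below all 3 GFP libraries, and GFP replicate 1 was the highest. The nearest libraries of the groups were not separated by counting error alone, with intervals of 23.2 to 33.7 CPM in MEF2C replicate 3 and 30.7 to 43.2 CPM in GFP replicate 3. The group means were 21.9 ± 5.89 and 41.6 ± 7.41 CPM (SD, n = 3 per group), a ratio of 0.527 and a log2 fold change of -0.92 ± 0.21 (SE). Without MEF2C replicate 3 the fold change was -1.14 and Ky was the only member called, where 22 of all 9485 genes tested were called. Without the low-count filter Ky was also called, where 35 of all 15334 genes were. Without MEF2C replicate 1 the fold change was -0.75. A lower level in whole muscle can mean fewer fibres that express a gene or less RNA in each, and bulk libraries cannot tell these apart.

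Flnc (ENSMUSG00000068699, chromosome 6, 29433256 to 29461883, plus strand) encodes filamin C, the muscle filamin that binds actin, KY, myotilin, the Xin proteins and the sarcoglycans. Its level was 100.4, 107 and 134 CPM under MEF2C and 73.8, 96.2 and 83.0 under GFP. Every library labelled MEF2C was above every GFP library, although MEF2C replicate 1 and GFP replicate 2 were close, with counting intervals of 90.7 to 111 and 85.6 to 108 CPM. The means were 114 ± 17.6 and 84.3 ± 11.2 CPM (SD, n = 3 per group), a ratio of 1.35 and a log2 fold change of 0.44 ± 0.15. After each library was corrected for transcript length the fold change was 0.36 and the groups overlapped: on the log2 scale around the gene's own mean, MEF2C replicate 1 stood at 0.07 and GFP replicate 2 at 0.09.

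Because both counts come from the same library, the ratio of Ky to Flnc does not depend on scaling between libraries. There were 16.2, 19.9 and 21.0 Ky reads per 100 Flnc reads under MEF2C and 67.9, 39.5 and 44.1 under GFP. The ratio in every GFP library was higher than in any library labelled MEF2C, with means of 50.5 ± 15.2 and 19.0 ± 2.49 (SD, n = 3 per group). This order was fixed by the levels above, where Ky was lower and Flnc higher without overlap, so it is no separate result. The ratios were not corrected for transcript length. Against Xirp2 the order was the same, with 10.4, 18.2 and 11.03 Ky reads per 100 Xirp2 reads under MEF2C and 24.5, 33.2 and 25.3 under GFP. Against Myot the groups were nearly adjacent, at 3.89 Ky reads per 100 Myot reads in MEF2C replicate 3 and 4.03 in GFP replicate 2. Against Xirp1 they overlapped, since GFP replicate 2 had 83.2 Ky reads per 100 Xirp1 reads and MEF2C replicate 3 had 99.1. Flnc against Synpo2, a partner in filamin turnover, gave 42.6, 42.0 and 58.0 Flnc reads per 100 Synpo2 reads under MEF2C and 30.0, 31.0 and 38.5 under GFP, without overlap.

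**Figure D2:**
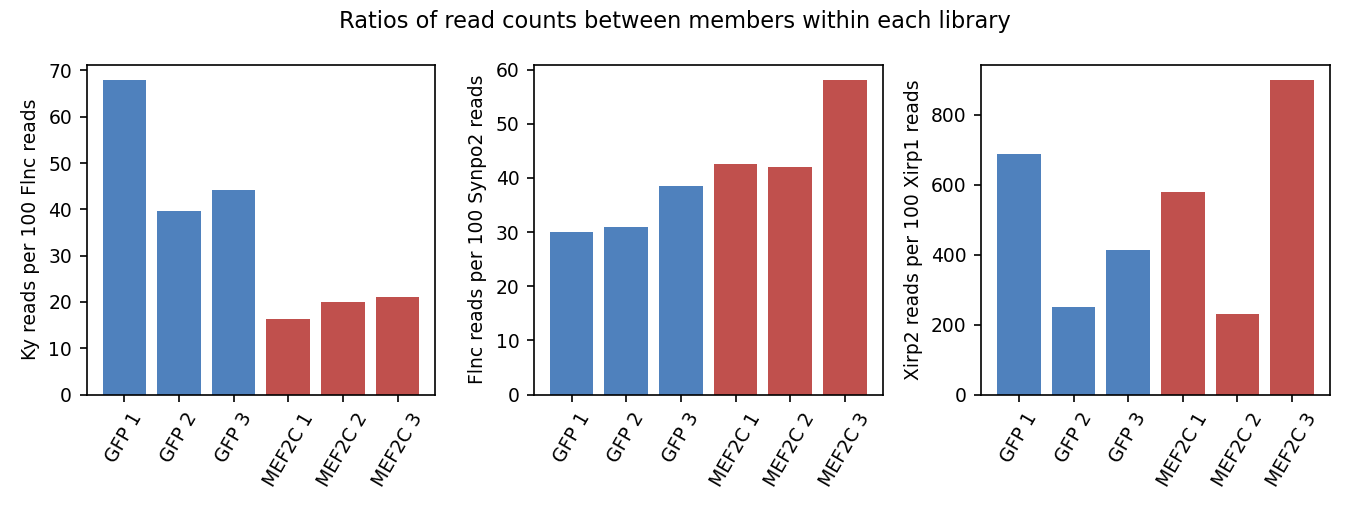
Ratios of raw read counts within each library (vertical axes, reads per 100 reads, from 0) for Ky to Flnc, Flnc to Synpo2 and Xirp2 to Xirp1; blue bars are GFP and red bars MEF2C libraries. Ky reads per 100 Flnc reads run from 39.5 to 67.9 in the GFP libraries and from 16.2 to 21.0 in the libraries labelled MEF2C, while the Xirp2 to Xirp1 ratio is lowest in replicate 2 of both groups.

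Igfn1 (ENSMUSG00000051985, chromosome 1, 135953578 to 136006342, minus strand) encodes a protein of immunoglobulin and fibronectin domains that binds KY. It had the lowest mean level of the members, with counts of 106, 68 and 113 under MEF2C and 53, 32 and 85 under GFP. In CPM these were 27.4, 16.9 and 27.3 against 15.7, 10.2 and 22.5. MEF2C replicate 2 lay within the GFP range, so the groups overlapped, and the other 2 libraries labelled MEF2C lay above all GFP libraries. The log2 fold change was 0.55 ± 0.28, with means of 23.9 ± 6.04 and 16.2 ± 6.17 CPM (SD, n = 3 per group). It depended on single GFP libraries, at 0.32 without GFP replicate 2 and 0.88 without GFP replicate 3. Igfn1 and Ky, whose proteins bind each other, had fold changes of opposite sign, although only the Igfn1 groups overlapped. There were 168, 79.1 and 97.4 Igfn1 reads per 100 Ky reads under MEF2C and 31.4, 26.9 and 61.6 under GFP. This ratio follows from the levels of the genes given above, so it is no separate result.

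The Xin genes encode actin-binding proteins with Xin repeats, found at myotendinous junctions and at sites of myofibril damage. Xirp1 (ENSMUSG00000079243, chromosome 9, 120013755 to 120023598, minus strand) stood at 27.2, 51.0 and 28.3 CPM under MEF2C and at 29.6, 45.7 and 35.01 under GFP. Replicate 2 was the highest in both groups, and the groups overlapped over nearly their whole range. The log2 fold change was -0.05 ± 0.26, and it was -0.41 without MEF2C replicate 2 and 0.13 without GFP replicate 2. Xirp1 lies wholly within the annotated span of Cx3cr1 on the same strand, and Cx3cr1 had 0 to 3 counts per library.

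Xirp2 (ENSMUSG00000027022, chromosome 2, 67446002 to 67526614, plus strand), whose window above held a MEF2 match, encodes the second Xin protein. It stood at 157, 118 and 254 CPM under MEF2C and at 204, 114 and 145 under GFP. MEF2C replicate 3 and GFP replicate 1 were the highest, and the groups overlapped. The log2 fold change of 0.19 ± 0.35 became -0.17 without MEF2C replicate 3. An antisense gene, Gm13601, is annotated across 25482 bases of Xirp2, and the sources used here do not say whether the counting used strand.

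The Xin genes did not follow each other across libraries. Xirp2 reads per 100 Xirp1 reads were 578, 231 and 899 under MEF2C and 689, 250.3 and 413 under GFP, so the spread within each group was wider than the difference between the group means of 569 and 451. Xirp2 has the longest transcript of the members, 11979 bases, and long transcripts differed between libraries. Over 383 genes with a transcript of at least 8000 bases and 20 or more counts on average, the median log2 level around each gene's own mean was 0.22 in MEF2C replicate 3 and 0.14 in GFP replicate 1, and between -0.12 and -0.03 in the other 4 libraries. These are the libraries in which Xirp2 was highest. The other members with transcripts of at least 8000 bases did not all share this. In MEF2C replicate 3 and GFP replicate 1, Flnc stood at 0.46 and -0.40, Igfn1 at 0.53 and -0.27, and Synpo2 at -0.10 and -0.01. Whether transcript length accounts for the Xirp2 levels was not tested. After the length correction Xirp2 still stood at 0.46 in MEF2C replicate 3 and 0.24 in GFP replicate 1, against 0.68 and 0.36 before it, and its group difference was 0.10.

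**Figure D3:**
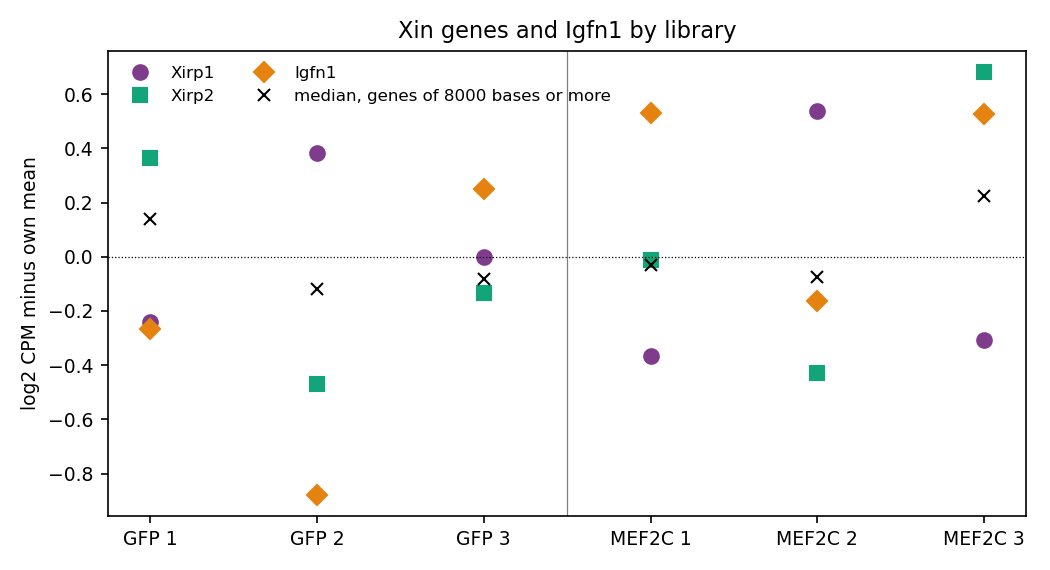
Log2 CPM of Xirp1, Xirp2 and Igfn1 minus each gene's own mean over the 6 libraries (vertical axis), with crosses for the median of 383 genes with transcripts of 8000 bases or more. Xirp2 and the crosses are highest in MEF2C replicate 3 (0.68 and 0.22) and GFP replicate 1 (0.36 and 0.14), and Xirp1 is highest in replicate 2 of both groups.

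Myot (ENSMUSG00000024471, chromosome 18, 44334074 to 44355724, plus strand) encodes myotilin, a Z-disc protein that binds alpha-actinin and filamin C. It stood at 864, 729 and 722 CPM under MEF2C and at 540.3, 944 and 805 under GFP. The GFP libraries spanned the values of those labelled MEF2C, with GFP replicate 1 the lowest of all 6 and GFP replicate 2 the highest. The log2 fold change was 0.02 ± 0.18, and it was -0.19 without GFP replicate 1 and 0.20 without GFP replicate 2.

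Synpo2 (ENSMUSG00000050315, chromosome 3, 123076519 to 123236149, minus strand), with the other MEF2 match, encodes myopodin, an actin-bundling Z-disc protein that takes part in filamin turnover with BAG3. It was the steadiest member, at 236, 256 and 231 CPM under MEF2C and at 246, 310.2 and 215 under GFP. The libraries labelled MEF2C lay inside the GFP range. The log2 fold change was -0.09 ± 0.14. With library totals in place of TMM the values of Xirp1 and Synpo2 turned positive, to 0.09 and 0.05, where the median of all tested genes moved from 0.01 to 0.14.

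**Figure D4:**
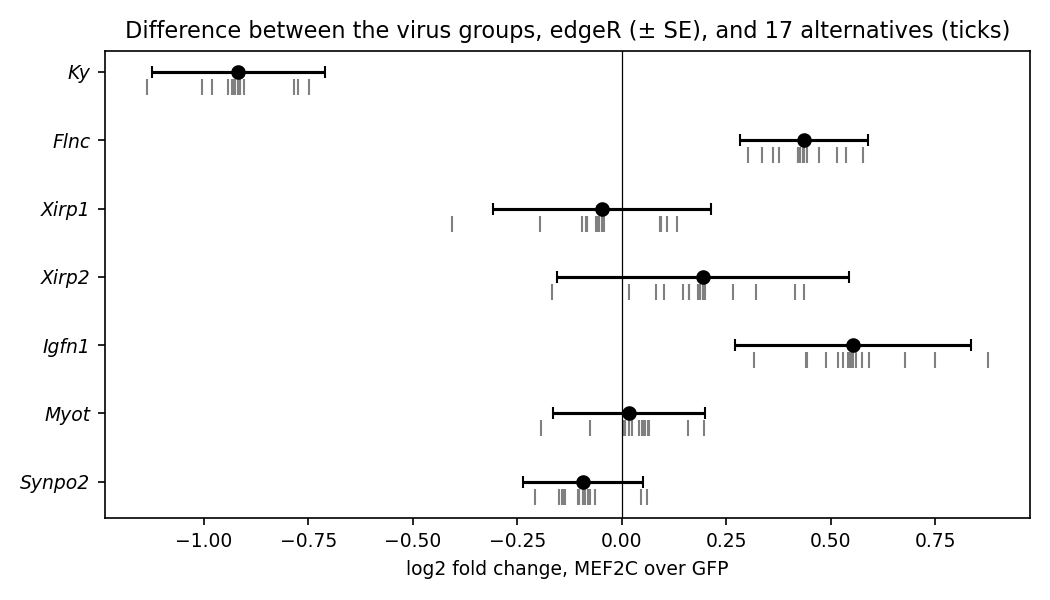
Log2 fold change of MEF2C over GFP libraries for each member (horizontal axis; point and bar are the edgeR estimate ± SE) with grey ticks for 17 alternative analyses. Ky stays between -1.14 and -0.75 and Flnc between 0.30 and 0.58, while the ticks of Xirp1, Xirp2, Myot and Synpo2 lie on both sides of 0.

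Spread over the 6 libraries differed between members. The coefficient of variation was 38.8% for Ky, 34.5% for Igfn1, 32.9% for Xirp2, 27.6% for Xirp1, 21.1% for Flnc, 18.2% for Myot and 13.3% for Synpo2, beside a median of 16.9% for 7137 tested genes that averaged 20 or more counts. Within groups the widest was Xirp2 in the libraries labelled MEF2C, at 39.9%, and Igfn1 in the GFP libraries, at 38.2%, and Synpo2 in the libraries labelled MEF2C was the narrowest, at 5.59%.

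Per kilobase of the longest annotated transcript, Myot was by far the most abundant, at 347 ± 63.1 CPM per kb (SD over the 6 libraries), followed by Synpo2 at 27.1 ± 3.59. Xirp2 at 13.8 ± 4.54 and Flnc at 10.97 ± 2.31 did not differ beyond their spread, and neither did Xirp1 at 6.19 ± 1.71 and Ky at 5.44 ± 2.11. Igfn1 was the lowest, at 2.23 ± 0.769. In the GFP libraries Ky stood at 7.12 ± 1.27 and Xirp1 at 6.30 ± 1.40 CPM per kb, and in the libraries labelled MEF2C at 3.76 ± 1.01 and 6.08 ± 2.30 (SD, n = 3 per group). Nanopore reads start from whole cDNA, so a read count need not grow with length as it does for short reads, and the order of the means over all 6 libraries was the same without division by length. Within the libraries labelled MEF2C it was not: there Ky was above Igfn1 per kb, at 3.76 against 2.66, and below it in CPM, at 21.9 against 23.9.

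The genes whose pattern over the 6 libraries lay nearest to Ky were Nrep, Cyp4f39, Hdac2, Gm14418 and Lrrc42, taken from 7136 candidates by the root mean square difference of log2 levels centred on each gene's mean. That difference was 0.15 for Nrep, 0.17 for Cyp4f39 and 0.19 for Hdac2, where Ky itself deviated from its mean by 0.54. Nrep stood at 40.6, 49.3 and 55.9 CPM under MEF2C and at 90.4, 79.9 and 82.2 under GFP. Nearest to Igfn1, which deviated by 0.50, were Ptpra at 0.15, Sos2 and Zc3h13 at 0.18, Ecm1 at 0.22 and Klf10 at 0.23. Among the members the closest pair was Myot and Synpo2, at 0.26, followed by Xirp1 and Synpo2 at 0.28, and the farthest was Ky and Igfn1, at 0.91.

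Lists of partner genes were read beside the members, by count and median. Over 95 tested genes of the 9 lists, edgeR called 3, all lower and all in the fast-fibre list. Chaperones and genes of chaperone-assisted autophagy, which fold or clear filamin C, were positive in 5 and negative in 8 of 13 tested genes, with a median of -0.23 and 0 called. Their groups did not overlap for 1 gene that stood higher and 4 that stood lower, where 11.1% of all tested genes had groups without overlap. Hspb6, a small heat shock protein, stood at 1244, 1278 and 926 CPM under MEF2C and at 662, 908 and 811 under GFP (log2 fold change 0.54 ± 0.15, edgeR adjusted p = 0.527). Sqstm1, the autophagy receptor p62, stood at 172, 158 and 184 against 247, 206 and 211 CPM (log2 fold change -0.37 ± 0.13, edgeR adjusted p = 0.753).

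Membrane partners of filamin C and the other filamins were positive in 5 and negative in 7 of 12 tested genes, with a median of -0.04 and 0 called. Sgcb, the beta-sarcoglycan of the membrane complex, stood at 28.7, 27.6 and 27.6 CPM under MEF2C and at 40.6, 40.3 and 33.7 under GFP (log2 fold change -0.44 ± 0.16, edgeR adjusted p = 0.753). Its delta partner Sgcd had a log2 fold change of 0.59 ± 0.34, from levels of at most 8.21 CPM. Flna, the filamin of non-muscle and smooth muscle cells, stood at 0.15 ± 0.19 and overlapped between the groups.

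Of 17 tested Z-disc and PDZ-LIM genes, 8 were positive and 9 negative, with a median of -0.02 and 0 called. Pdlim7, the scaffold enigma, stood at 180, 242 and 256 CPM under MEF2C and at 357, 335 and 332 under GFP, without overlap (log2 fold change -0.59 ± 0.14, edgeR adjusted p = 0.287). Actn2, the alpha-actinin that anchors actin in the Z-disc, stood at 1208, 1394 and 782 against 603, 785 and 761 CPM (0.66 ± 0.20, edgeR adjusted p = 0.750). In the list of further KY and IGFN1 partners and muscle proteases, 4 of 9 genes were positive, the median was -0.00296 and 0 were called. Eef1a2, a muscle elongation factor, had 0.44 ± 0.24 and Capn1, a calpain, -0.19 ± 0.26 (edgeR adjusted p = 0.927 and 0.993).

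Partners of the Xin proteins at cell junctions were positive in 4 of 7 tested genes, with a median of 0.10 and 0 called. Ctnnb1, beta-catenin, had a log2 fold change of -0.20 ± 0.15 and Actn1 of 0.41 ± 0.33 (edgeR adjusted p = 0.965 and 0.976). Membrane repair genes were positive in 6 of 10, with a median of 0.09 and 0 called. Myof, the ferlin myoferlin of membrane fusion, stood at 6.99, 9.95 and 7.74 CPM under MEF2C and at 5.04, 3.19 and 3.18 under GFP (1.11 ± 0.31, edgeR adjusted p = 0.527). Ahnak, a large scaffold of the repair complex, stood at 257, 252 and 265 against 228, 146 and 212 CPM (0.40 ± 0.16, edgeR adjusted p = 0.806). Stretch and injury genes were positive in 8 of 9, with a median of 0.32 and 0 called, and no gene of that list had groups without overlap. Egr1 had 1.497 ± 0.76 and Mustn1 0.23 ± 0.18 (edgeR adjusted p = 0.927 and 0.976).

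**Figure D5:**
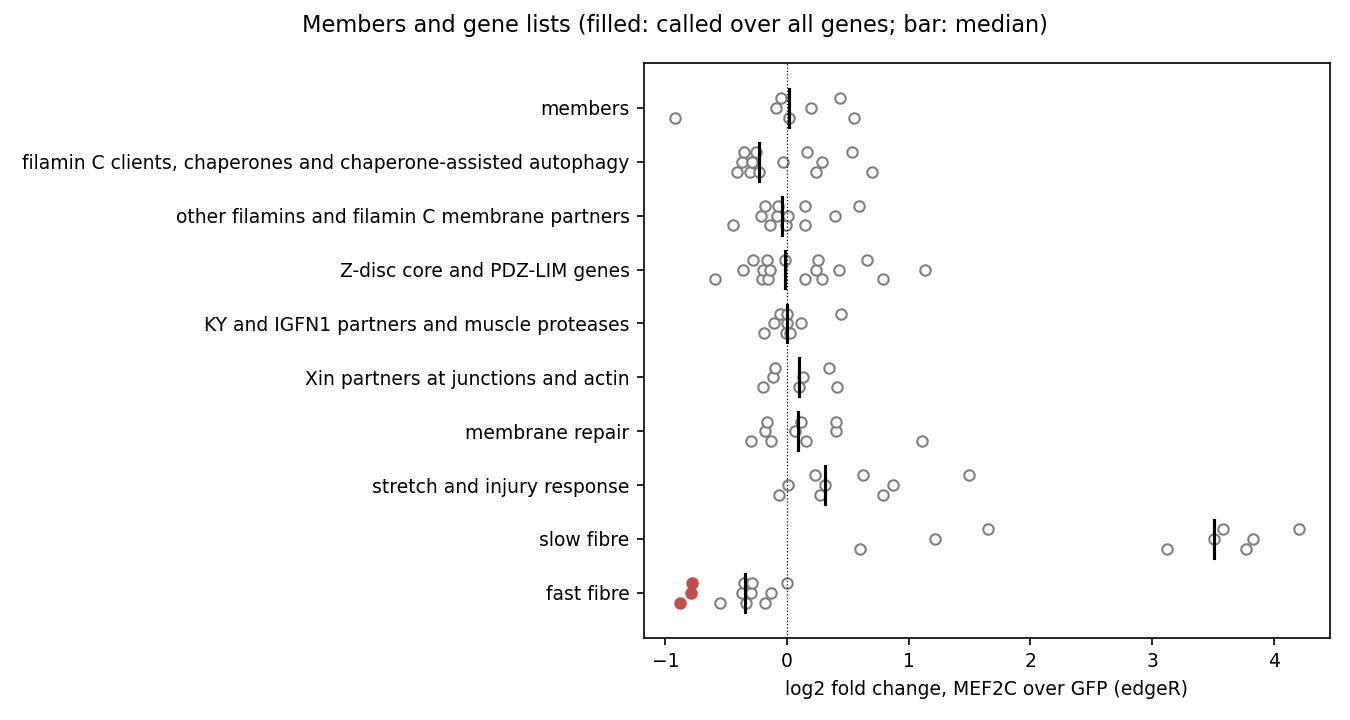
Log2 fold change of MEF2C over GFP libraries (horizontal axis, edgeR) for the 7 members and for each tested gene of the 9 lists; filled red points passed the test over all genes and black bars are medians. The members centre on 0.02 with Ky lowest at -0.92, the slow-fibre list has a median of 3.51, and the 3 filled points are fast-fibre genes.

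Fibre genes and markers of other cells also differed between these libraries, and their part in the levels of Ky and Flnc was not tested. The 10 slow-fibre genes summed to 1692, 1663 and 422 CPM under MEF2C and to between 199 and 265 CPM in the GFP libraries. Of 9 tested, 9 were positive and 0 were called, and 8 stood higher without overlap, where 5.68% of all tested genes did so. Atp2a2, the slow calcium pump, stood at 1.21 ± 0.23 and Myl3, the slow light chain, at 3.51 ± 0.82 (edgeR adjusted p = 0.121 and 0.750). The fast-fibre list fell in 3 genes, Pvalb, Mylpf and Myl1, at -0.88 ± 0.12, -0.79 ± 0.11 and -0.78 ± 0.12 (edgeR adjusted p = 0.0164, 0.0188 and 0.0343), and 11 of its 12 genes were negative. Of the 12, 8 stood lower without overlap, where 5.43% of all tested genes did so. The fast-fibre sums were 176480 to 187987 CPM under MEF2C and 229851 to 275442 CPM under GFP. Among the libraries labelled MEF2C, Ky was lowest in replicate 1 and highest in replicate 3, where the slow-fibre sum was lowest. In GFP replicates 1, 2 and 3 the slow-fibre sums were 209, 199 and 265 CPM, beside Ky at 50.1, 38.0 and 36.6 CPM. Whether the level of Ky goes with the slow-fibre sum was not tested.

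Smooth muscle, in which Synpo2 is also expressed, had 9 of 9 markers tested, of which 8 were positive and 0 called. Of these markers 3 stood higher without overlap between the groups, where 5.68% of all tested genes did so. The smooth muscle markers summed to 968 to 1063 CPM in the libraries labelled MEF2C and to 783 to 973 in the GFP libraries. Rgs5 and Acta2 were the most abundant. Neutrophil markers summed to 1199 CPM in MEF2C replicate 1, 74.5 in GFP replicate 3 and at most 4.23 in the other 4, led by S100a8 and S100a9, and Mpo had 0 reads in those 4. Bone markers, led by Ctsk and Ibsp, summed to 209, 90.1 and 31.4 CPM under MEF2C and to 32.9 to 44.0 in the GFP libraries, where Bglap had 0 reads. Blood markers, led by Hba-a2 and Hbb-bs, summed to 8623, 4389 and 4851 CPM under MEF2C and to 3724, 3085 and 4169 under GFP, so the sums did not overlap. Of 5 blood genes 5 were positive and 0 called, and 4 stood higher without overlap, beside 5.68% of all tested genes. The sum of satellite cell markers, led by Vcam1 and Cdh15, lay the other way, at 21.0 to 21.9 CPM under MEF2C and 25.2 to 27.3 under GFP. Of 3 tested genes 3 were negative, but 0 were without overlap and 0 called. Levels were low, with no gene above 12.2 CPM. The sums of the fibro-adipogenic progenitor, tendon, adipocyte, Schwann cell and macrophage lists overlapped between the groups. In this order 2 of 5, 4 of 4, 3 of 4, 0 of 4 and 4 of 5 tested genes were positive, with 0 called. The medians were -0.05, 0.51, 0.75, -0.42 and 0.15. The adipocyte sum was mostly Car3, the list's 1 negative gene, at -0.16 ± 0.30. Endothelial markers, led by Pecam1 and Egfl7, differed little, at 263 to 268 and 244 to 273 CPM. MEF2C replicate 1 had the highest neutrophil, blood and bone sums, and also the highest slow-fibre, tendon and macrophage sums. Without this library the fold change was -0.75 for Ky and 0.52 for Flnc. Leaving it out changes all of these sums together, and the part of any of them was not tested.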

How the data were processed

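Gene counts of 6 Nanopore cDNA libraries were analysed, 3 labelled MEF2C and 3 GFP, grouped by their titles. Per the file headers, the deposited gene table gives counts and CPM. The deposited CPM, scaled by the authors to whole-library reads, were used only to recover library totals, of which the listed counts were 95.6% to 96.4%. The submitters' processing notes name minimap2, DESeq2 1.6.3 and GRCm38, without roles; the counting tool and the use of strand were not given in the sources used here. In the table, 30 rows named no gene, held 0 counts and were left out.

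Counts were tested in R 4.3.3 with edgeR 4.0.16 (robust glmQLFit and glmQLFTest, filterByExpr, TMM, Benjamini-Hochberg adjustment over 9229 genes, called under 0.05). Fold changes are log2, with SE from the F statistic. Centred log2 levels had 0.5 reads added. Positions and transcript lengths came from GENCODE vM21 (GRCm38), which held 22022 of 22036 identifiers and all tested genes. The fit was tested on simulated data. No same-group pair of libraries agreed within sampling noise (chi-square per degree of freedom 5.45 to 12.0).

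The members and gene lists were chosen with earlier results of these data known. The text names the 7 members, Mef2c, and up to 4 called genes per list or else the 2 with the smallest p. It names the 5 genes nearest to Ky and to any member whose group means differ by over 0.5 (log2). Of each cell type list whose sums are printed, it names the 2 most abundant genes. Flna, Sgcd's level, Mpo, Bglap, Car3, Cx3cr1 and the summary of long transcripts were chosen after their values were seen. Alternatives were DESeq2 size factors, library totals, 2 other filters, DESeq2 1.42.0, limma-voom (limma 3.58.1), non-robust dispersion, a replicate block, a per-library loess correction on transcript length (span 0.3), both together, a prior count of 0.5 in place of 0.125, and leaving out each library.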

Additional observations from a re-analysis of the deposited data

How the results depend on the processing

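The sign of Ky, Flnc and Igfn1 was the same in all 17 alternatives, that of Xirp2 in 16, Myot and Synpo2 in 15 and Xirp1 in 13; the exceptions left out a library or used library totals. By edgeR, 7 genes were called over all genes, 0 of the members and 3 of the list genes. Without the low-count filter these counts were 35, 1 (Ky) and 6, with 15334 genes tested. The strict filter gave 3 genes and limma-voom 3. DESeq2 called 22 genes and 8 list genes. Non-robust dispersion called 0 genes and 0 list genes by edgeR, with 558 and 28 at an unadjusted p under 0.05. With the replicate number as a block, 2 genes and 0 list genes were called by edgeR, and with the block and the length correction 0 and 0, with 436 and 473 genes and 18 and 23 list genes at an unadjusted p under 0.05. The labels do not say that the numbers pair animals. Same-numbered libraries deviated with correlations across genes of -0.27, 0.06 and -0.34, where differently numbered ones ran from -0.14 to 0.37. So few values cannot decide whether the numbers mark a pairing. Leaving out 1 library gave 0 to 22 genes, 0 to 1 members and 0 to 9 list genes. The 0 genes came without GFP replicate 3, where 386 of 9624 had an unadjusted p under 0.05. The 22 genes came without MEF2C replicate 3, of 9485 tested. Counts of 63 to 169 reads limit Ky, and 32 to 113 limit Igfn1.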

Other observations

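The genes nearest in pattern to the other members, chosen after the members' values were seen, are given as values over the 6 libraries. Among those nearest to Xirp1 was Serpinh1, the collagen chaperone, at a root mean square difference of 0.10, where Xirp1 deviated from its mean by 0.35. Serpinh1 stood at 204, 369 and 212 CPM under MEF2C and at 216, 314 and 299 under GFP, with replicate 2 highest in both groups as for Xirp1. Nearest to Xirp2, which deviated by 0.41, were Pbrm1 at 0.06 and Eea1 at 0.09, whose longest transcripts have 7907 and 7749 bases, followed by Ankrd9 at 0.10 (2577 bases), Tpr at 0.11 (7480 bases) and Dnajc21 at 0.12 (2753 bases). Eea1, an endosome tether, stood at 6.21, 4.23 and 10.9 CPM under MEF2C and at 7.71, 4.15 and 6.10 under GFP. Nearest to Myot was Zmpste24, the protease that matures lamin A, at 0.03, with 23.6, 20.4 and 20.1 against 15.1, 27.2 and 21.5 CPM. For Flnc it was Mllt11 at 0.06, with 80.2, 80.4 and 97.7 against 59.9, 79.2 and 64.2 CPM, so that its groups too were without overlap.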
